A study of Mus musculus with 2 samples.

Results

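Broad DNase I hypersensitive sites (DHSs) were described in the left cerebral cortex of newborn mice. In DNase-seq, chromatin is digested with the enzyme DNase I and the cuts are sequenced; a DHS is a stretch cut more than its surroundings. There was 1 group of 2 libraries, replicate 1 and replicate 2, labelled as biological replicates. Both came from tissue of female B6CASTF1/J mice, an F1 hybrid of inbred strains, at 4 days of age. The labels name no treatment, and they do not say whether each library came from a single mouse. Overlapping calls were joined into unions, a union with calls of both libraries was a shared DHS, and broad DHSs were those selected on a measured value, a width of 800 bp or more on an autosome. This rule found 1259 of 25283 autosomal shared DHSs (4.98%), and 26012 shared DHSs were found in all. The libraries held 59355 and 46566 calls, of which 807 and 415 were themselves 800 bp or longer. Widths, calls and signal values chose the members or came from the same reads, so they are given as a description with no test.

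A narrow DHS is typically the gap that a few bound factors leave between nucleosomes, and it marks promoters, enhancers and insulators. Active promoters at CpG islands, long runs of CG-dense sequence that stay unmethylated, can carry a wider nucleosome-poor stretch than enhancers do. In developing brain, genes for transcription factors, signalling receptors and axon guidance often have large CpG islands.

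The sequences of 4 of the widest broad DHSs show the range of base composition among them. The first 3 are the 200 bases directly before the annotated transcription start site (TSS) of the 3 widest promoter members where this stretch held no annotated exon, written in the direction of the gene. The last is the exon-free stretch of 200 bases nearest the middle of a distal member, one farther than 1 kb from any protein-coding TSS, that touches a CpG-rich run. Capitals mark CG dinucleotides, and the letters are those of the mm10 reference, not of the hybrid's own alleles.
Fat3 (chr9:16501286-16501485, minus strand): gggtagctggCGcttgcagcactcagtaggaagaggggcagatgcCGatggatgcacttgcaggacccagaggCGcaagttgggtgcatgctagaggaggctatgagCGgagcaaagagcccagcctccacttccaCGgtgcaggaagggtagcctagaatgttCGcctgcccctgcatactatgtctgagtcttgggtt
Plxnc1 (chr10:94944836-94945035, minus strand): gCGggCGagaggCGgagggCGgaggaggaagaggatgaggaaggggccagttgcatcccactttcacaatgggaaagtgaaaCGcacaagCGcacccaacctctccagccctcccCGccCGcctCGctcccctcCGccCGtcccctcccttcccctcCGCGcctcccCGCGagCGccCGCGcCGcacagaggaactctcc
Ptprg (chr14:11553332-11553531, plus strand): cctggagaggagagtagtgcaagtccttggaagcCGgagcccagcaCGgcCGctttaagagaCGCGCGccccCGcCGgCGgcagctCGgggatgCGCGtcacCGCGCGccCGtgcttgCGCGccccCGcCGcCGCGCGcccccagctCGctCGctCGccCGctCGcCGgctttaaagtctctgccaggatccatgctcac
near Otx1 (chr11:21997059-21997258, plus strand): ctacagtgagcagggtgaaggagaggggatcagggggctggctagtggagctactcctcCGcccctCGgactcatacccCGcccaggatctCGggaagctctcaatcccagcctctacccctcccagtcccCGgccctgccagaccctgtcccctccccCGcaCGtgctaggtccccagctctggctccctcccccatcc

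These stretches held 6 CG dinucleotides at Fat3, 19 at Plxnc1 and 29 at Ptprg, with GC contents of 58.5%, 70% and 72.5%. Near Otx1 there were 7, at a GC content of 67.5%. Fat3 encodes a large atypical cadherin, Plxnc1 a semaphorin receptor and Ptprg a receptor tyrosine phosphatase. CG density before the start site thus differed widely even among the widest promoter members.

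Broad DHSs were mostly short of 1 kb. The median width was 942 bp, the quartiles were 860 and 1118 bp, and the maximum was 3300 bp. Under 1000 bp were 759 of them (60.3%), 417 were 1000 to under 1500 bp wide, 83 were 1500 bp or wider, and 10 reached 2000 bp. The edge of the class was arbitrary: 109 shared DHSs were 800 to under 820 bp wide and 101 were 780 to under 800 bp wide. Exactly 800 bp were 87 shared DHSs, among them those at Nrbf2 (a signal value of 1.16 in replicate 1, and 3.15 in replicate 2), at Hivep2 (1.38 and 2.56) and between Rdh10 and Rpl7 (1.08 and 1.93). Just outside, within 2 bp of the limit, lay those at Rnf180 (0.841 and 1.39), Plagl1 (0.925 and 2.47) and Eva1c (0.873 and 1.32). The signal value is the authors' tag density of a call, the highest in the union being given for each library. Its scaling was not given in the sources used here, so levels were not compared between libraries.

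The width of a union does not say that each library called all of it. The bases called had a median of 860 bp in replicate 1 and 800 bp in replicate 2, and those called in both a median of 600 bp, or 60.9% of the union. A run of 800 bp or more without a gap was present in replicate 1 at 741 broad DHSs, in replicate 2 at 460, in each of them at 173 and in neither at 231. At 298 of the 1259 (23.7%), 800 bp or more were called in both. A single call in each library made up 102 of them, and 467 held 3 or more calls of one library. Gaps between calls still held cut bases: those under the authors' false discovery rate of 0.001 made up a median of 99.7% of the union in replicate 1 and 100% in replicate 2.

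The widest broad DHS lay at the promoter of Ephb1, a receptor tyrosine kinase for ephrin-B ligands that guides axons (mm10 chromosome 9, 102351721 to 102355020). It was 3300 bp wide, of which replicate 1 called 3300 bp in 10 calls and replicate 2 called 1431 bp in 6. The signal values were 1.42 and 4.1. Most of it lay in the gene: 327 bp were upstream of the start site and 2972 bp downstream. Its full width thus came from replicate 1.

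At Fat3 (chromosome 9, 16500101 to 16502560) the union of 2460 bp held 2340 called bp in replicate 1 and 1780 in replicate 2, with signal values of 1.39 and 2.89. Plxnc1 (chromosome 10, 94943471 to 94945609) had the best agreement among the widest: of 2139 bp, 2057 were called in replicate 1, 2139 in replicate 2 and 2057 in both, with signal values of 1.46 and 2.35. Tle3, which encodes a Groucho-type corepressor, had the poorest agreement among the 12 widest promoter members: 1031 and 1620 of 2060 bp were called, and 591 bp in both, with signal values of 1.17 and 1.61. Its union covered 8 annotated start sites.

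The other genes among the 12 widest have varied functions. Gpc6, a glypican, had 1820 and 1520 called bp of 2040 bp, and Ptprg had 1760 and 1360 of 2020 bp. Pgr, the progesterone receptor, had 1520 and 1340 of 2020 bp, with signal values of 0.953 and 2.09. Atp2b1, a calcium pump of the plasma membrane, had higher signal values, 2.15 and 8.65, with 1673 and 1280 of 1980 bp called. Nrp1, a receptor for semaphorins and VEGF, had 1970 and 1660 of 1970 bp called, and its DHS lay mostly upstream, 1423 bp before the start site and 546 bp after it. At Kcnn2, a calcium-activated potassium channel, replicate 1 called the whole union of 2260 bp and replicate 2 called 840 bp of it. At Ctif, a translation initiation factor, 1629 and 1540 of 1969 bp were called, with signal values of 1.51 and 5.78. At Tent5a, a noncanonical poly(A) polymerase, replicate 1 called 1938 and replicate 2 called 1239 of 1958 bp, with 2 footprints in replicate 1 and 0 in replicate 2. The 12 thus differ in agreement between the libraries, in side of the start site and in footprints.

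**Figure D1:**
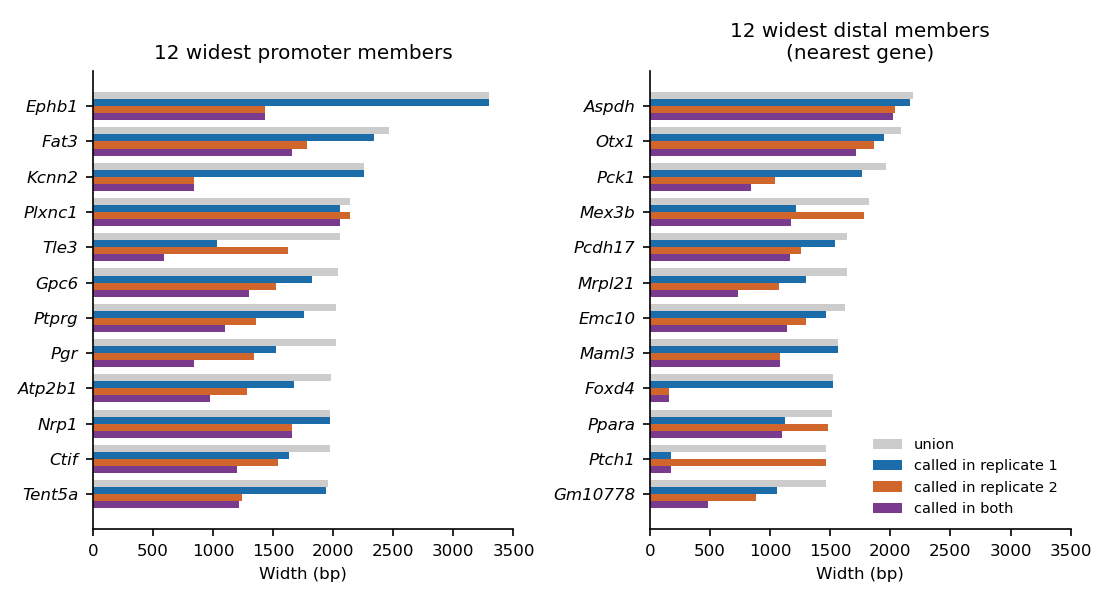
Union width and called bases (bp, horizontal axis) of the 12 widest promoter members (left) and the 12 widest distal members (right, labelled by the nearest protein-coding gene). Grey bars are the union, blue and orange bars the bases called in replicate 1 and replicate 2, and purple bars the bases called in both; at Ephb1 the union of 3300 bp held 1431 bp called in both, and near Foxd4 and Ptch1 one library called only 156 and 171 bp.

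Broad DHSs lay mostly at promoters, but so did those of 400 bp up. Within 1 kb of the TSS of a protein-coding gene were 1080 of 1259 (85.8%, exact 95% interval 83.7 to 87.7, counting error only), against 13038 of the other 24024 (54.3%). The share was 12.7% under 200 bp, 51.5% from 200 bp, 81.2% from 400 bp and 83.9% from 600 bp up to the limit of 800 bp. By the midpoint of the DHS, which does not give a wide interval more chance to meet a window, the shares were 12.2, 50.7, 79.8, 81.6 and 82%. So most of the difference from the other shared DHSs lay between the narrow classes, and the intervals of the broad class and the class from 600 bp overlapped. The remaining 179 broad DHSs, the distal ones, lay over exons (99), introns (26) and intergenic sequence (54).

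CpG-rich start sites were more frequent the wider the DHS. A start site was counted as CpG-rich where the observed to expected CpG ratio within 500 bp was 0.6 or more. It held for 959 of the 1080 broad promoter DHSs (88.8%, interval 86.8 to 90.6) and 10442 of 13038 other promoter DHSs (80.1%, interval 79.4 to 80.8). By width class the share was 58.9, 77.7, 84, 85.8 and 88.8%. The run of CpG-rich sequence that a promoter DHS touched had a median of 1444 bp at broad ones and 1003 bp at the others, and 1170 bp in the class from 600 bp. At 902 of the 1080 the run was longer than the DHS itself. The median GC content over the DHS was 67.8% at broad and 66.1% at other promoter DHSs.

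**Figure D2:**
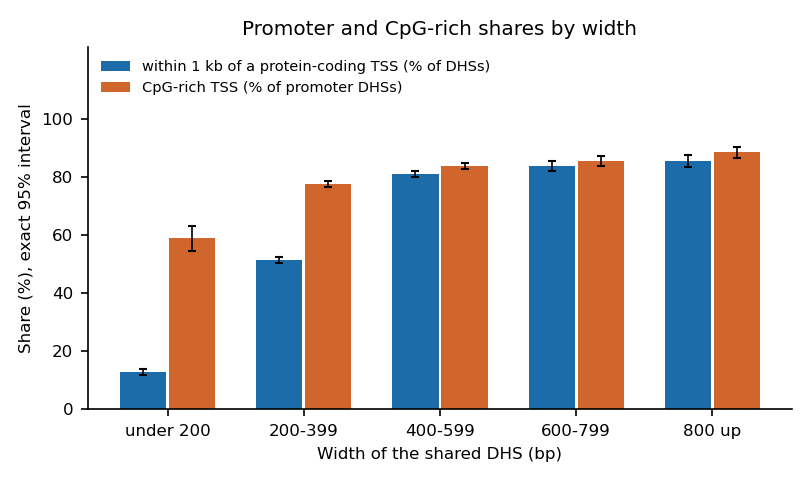
Share (%) of autosomal shared DHSs within 1 kb of a protein-coding TSS (blue) and share of those promoter DHSs with a CpG-rich start site (orange), by width class in bp; bars are shares and whiskers exact 95% intervals. The promoter share was 81.2, 83.9 and 85.8% in the 3 widest classes and 12.7% under 200 bp; the CpG-rich share went from 58.9 to 88.8%.

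Broad promoter DHSs reached further into the gene than before it in most cases. This was measured at the 790 broad promoter DHSs with 1 protein-coding gene and a start site inside. They had a median of 396 bp upstream (quartiles 243.2 and 577.5) and 595 bp downstream (427.2 and 762.2). The downstream part was the longer one at 526 (66.6%, interval 63.2 to 69.9). At 8035 narrower promoter DHSs chosen in the same way the medians were 178 and 182 bp, and the downstream part was longer at 3916 (48.7%, interval 47.6 to 49.8). Calls covered 62.8% of the 790 in replicate 1 and 52.7% in replicate 2 in the bin of 450 to 500 bp downstream, against 38.5 and 29.5% in the bin of 450 to 500 bp upstream. At the narrower DHSs the same bins had 16.2 and 15.5% downstream and 6.92 and 5.95% upstream. Calls also stood in the bin centred 1975 bp downstream (1.23 and 1.38%), which a DHS under 800 bp around its start site cannot reach. The bins thus count calls of neighbouring DHSs too, and they do not measure how far a DHS reaches. Broad promoter DHSs covered a start site in 882 of 1080 cases and 2 or more start sites in 418 (38.7%), against 30.6% of the other promoter DHSs. Genes on both strands were within reach at 94 (8.7%), against 9.66% of the others. Whether such genes point away from each other, with the DHS between them, was not checked.

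**Figure D3:**
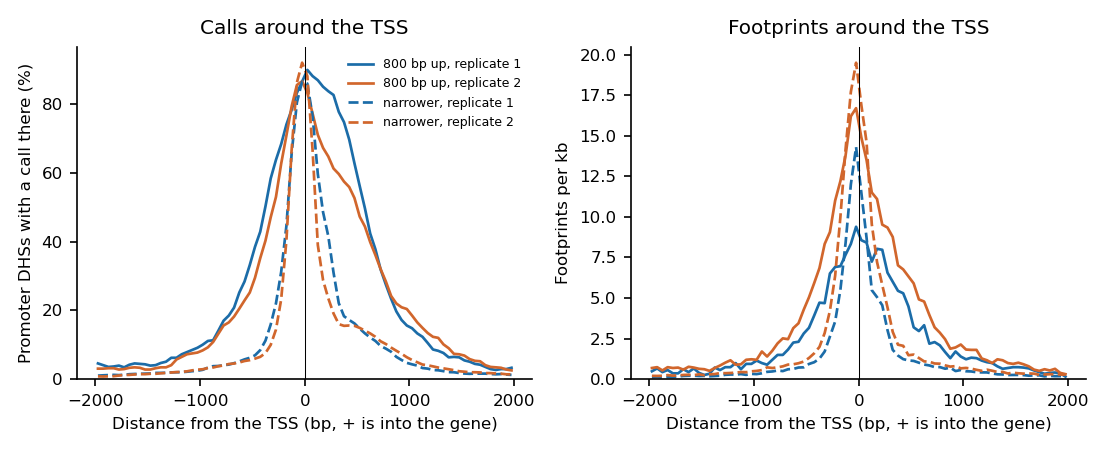
Left, share (%) of promoter DHSs with a call in each bin of 50 bp; right, footprints per kb in the same bins; the horizontal axis is the distance from the TSS in bp, positive into the gene. Solid lines are 790 broad and dashed lines 8035 narrower promoter DHSs, blue replicate 1 and orange replicate 2; the solid lines extend further on both sides, and 450 to 500 bp into the gene calls covered 62.8 and 52.7% of broad against 16.2 and 15.5% of narrower DHSs.

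Width did not go with height. The median signal value of broad DHSs was 1.13 in replicate 1 and 2.35 in replicate 2. It was 1.32 and 3.24 at shared DHSs of 400 to under 600 bp, and 0.887 and 1.47 under 200 bp. At promoters the medians were 1.17 and 2.46 for broad and 1.39 and 3.53 for other DHSs. Among the 1000 autosomal shared DHSs of highest signal value, 16 were broad in replicate 1 (1.6%) and 23 in replicate 2 (2.3%), against 4.98% of all. So both libraries had their broad DHSs in the middle of the range of signal values.

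Ranked by the geometric mean of both libraries, the highest signal values of broad DHSs were at Camta1, a calmodulin-binding transcription activator (4.49 and 14), between Odr4 and Tpr, which encodes a nuclear pore protein (3.87 and 14.2), and between Mepce and Zcwpw1 (3.03 and 13.4). By the same rank the lowest were at distal ones near Trpm1 (0.229 and 0.134), Npr2 (0.196 and 0.158) and Cabyr (0.252 and 0.142). Near Trpm1, 49.1% of the bases were soft-masked repeats, the most of any broad DHS. Replicate 2 called only 126 of 1060 bp there.

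Footprints, the short protected stretches inside cut regions that the deposited files list, were sparser in broad DHSs. Replicate 1 had 6.86 footprints per kb of broad DHS and replicate 2 had 10.5. Under 200 bp the densities were 11.5 and 14.5 per kb, and they were lower in each wider class except that replicate 2 had 14.6 in the class from 200 bp. Per DHS the count went the other way: a broad DHS held 7.09 footprints in replicate 1 and 10.8 in replicate 2 on average, against 1.86 and 2.34 under 200 bp. Footprints that overlapped one of the other library made up 46% of those of replicate 1 in broad DHSs and 29.3% of those of replicate 2, against 77.7 and 56.1% under 200 bp. At least 1 such common footprint was present in 1080 broad DHSs (85.8%), close to the 19820 of the other 24024 (82.5%). No footprint in either library was held by 16 broad DHSs. Footprints and calls come from the same reads, and the part of signal value in the densities was not tested.

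**Figure D4:**
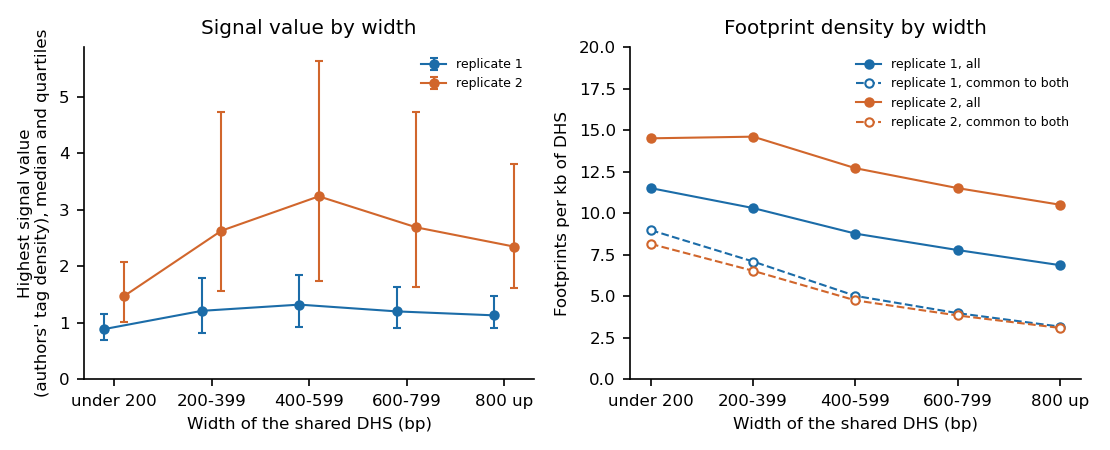
Left, highest signal value (the authors' tag density) of shared DHSs by width class in bp, median with quartiles; right, footprints per kb of DHS, all (filled) and common to both libraries (open). Blue is replicate 1 and orange replicate 2; medians were highest at 400 to under 600 bp (1.32 and 3.24), and common footprints went from 8.97 and 8.14 per kb under 200 bp to 3.16 and 3.08 per kb in broad DHSs.

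The broad DHSs with the most common footprints were those at Kmt5b, a histone H4 lysine methyltransferase, at Garnl3 and at Fbrs, each with 13 in replicate 1. Stretches of 150 bases without an annotated exon, chosen to hold as many of them as possible, are shown on the plus strand of mm10. Capitals mark the bases that footprints of both libraries share.
Garnl3 (chr2:33130994-33131143, plus strand): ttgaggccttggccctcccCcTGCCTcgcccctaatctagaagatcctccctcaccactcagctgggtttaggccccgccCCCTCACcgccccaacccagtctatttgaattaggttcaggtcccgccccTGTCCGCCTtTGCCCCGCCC
Kmt5b (chr19:3768731-3768880, plus strand): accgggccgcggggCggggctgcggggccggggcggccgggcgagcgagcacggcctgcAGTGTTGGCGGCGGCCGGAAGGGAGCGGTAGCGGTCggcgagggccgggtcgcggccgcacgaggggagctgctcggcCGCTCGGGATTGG
Fbrs (chr7:127478346-127478495, plus strand): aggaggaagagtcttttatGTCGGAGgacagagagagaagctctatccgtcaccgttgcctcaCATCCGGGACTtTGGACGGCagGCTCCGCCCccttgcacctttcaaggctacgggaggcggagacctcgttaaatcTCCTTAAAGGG

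The stretch at Garnl3 held 5 overlaps between a footprint of replicate 1 and one of replicate 2, that at Kmt5b 3 and that at Fbrs 5. They covered 32, 50 and 46 bases. An overlap of 1 base was counted too, as the lone capitals at Garnl3 and Kmt5b show. Replicate 1 listed 17, 16 and 17 footprints over the whole DHS of Garnl3, Kmt5b and Fbrs, and replicate 2 listed 21, 23 and 14. The signal values were 1.93 and 7.02 at Garnl3, 2.39 and 6.11 at Kmt5b, and 2.68 and 9.76 at Fbrs. All of them are above the medians of broad DHSs.

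Consensus sequences of promoter factors were sparser in broad promoter DHSs. Matches on both strands were counted per kb for 20 consensus sequences, with exact intervals of the ratio of densities that cover counting error only. For 12 of the 20 the interval lay under 1, and for none of the 20 above 1. The NRF1 consensus GCATGCGC, bound by nuclear respiratory factor 1, had 73 matches in broad promoter DHSs (0.0652 per kb) and 1190 in the others (0.23 per kb), a ratio of 0.284 (0.221 to 0.359). The cyclic AMP response element TGACGTCA had a ratio of 0.29 (0.196 to 0.414), the ETS consensus CCGGAAGTG 0.226 (0.151 to 0.325) and the YY1 consensus AAGATGGCG 0.392 (0.285 to 0.529). The GC-box GGGGCGGGG of SP and KLF factors was nearer to even, with 0.673 against 0.805 matches per kb and a ratio of 0.836 (0.772 to 0.903); in windows of one length the interval of its ratio held 1, from 0.815 to 1.09 at the midpoint and from 0.985 to 1.25 at the start site. For the NEUROD E-box CAGATGG, the ratio was 1.03 (0.842 to 1.25).

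Per DHS the picture depended on the consensus. The GC-box was present in 43.7% of broad promoter DHSs and 23.6% of the others, whereas NRF1 matches were present in 4.72 and 6.05%. A window of one length takes width out. In the 300 bp around the midpoint, NRF1 matches stood in 1.76% of broad and 5.04% of other promoter DHSs, the cyclic AMP element in 0.556 and 3.29%, and the GC-box in 18.4 and 19.5%. The midpoint of a broad DHS lies further into the gene, so the window from 250 bp before to 50 bp after the start site was counted too. There NRF1 matches stood in 2.41 and 5.41%, the cyclic AMP element in 1.67 and 3.8%, and the GC-box in 27.5 and 24.7%. The GC content of the 300 bp around the midpoint had a median of 70% at broad and 66.3% at other promoter DHSs. Versions of the NRF1 consensus with shuffled bases had 0.0674 matches per kb in broad and 0.0607 in other promoter DHSs, so they did not share the lower density.

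The consensus of CTCF, the main insulator protein, was rare in broad DHSs, and it was rare in other promoter DHSs too. It had 9 matches in the 1080 promoter members, a ratio of 0.195 (0.0881 to 0.378) to the others. A match was present in 0.833% of broad and 1.61% of other promoter DHSs. In the 179 distal members it had 2 matches (0.011 per kb), against 2162 in the 10986 other distal DHSs (0.778 per kb), a ratio of 0.0142 (0.00171 to 0.0512). In the 300 bp around the midpoint it stood in 0 of 179 distal members, which allows a share of up to 2.04%, and in 2129 of the other distal DHSs (19.4%). Those others had a median width of 206 bp, against 940 bp for distal members, and the part of width in the CTCF values was not tested. In distal members the GC-box was denser than in other distal DHSs, with 0.314 against 0.201 matches per kb and a ratio of 1.56 (1.17 to 2.05). Divided by the ratio of its shuffled versions it was 0.89 (0.666 to 1.17). The consensus is a run of G with a lone C, so its shuffled versions are close to it or equal to it. They therefore cannot separate the GC-box from GC-rich sequence at large. The median GC content was 62.8% in distal members and 54.4% in other distal DHSs.

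The distal broad DHSs were of more than one kind. A CpG-rich run was touched by 144 of 179 (80.4%, interval 73.9 to 86), against 38.4% of other distal DHSs, and a run of 1000 bp or more by 85 (47.5%), against 6.43%. A long noncoding RNA started within 1 kb of 35 (19.6%), against 6.44%. The median width was 940 bp for distal members and 206 bp for other distal DHSs, and a wider interval has more chance to meet a run or a start site. The part of width in these shares was not tested. The distance to the nearest protein-coding TSS had a median of 15 kb. It was 5 kb or less at 61 of the 179 and over 50 kb at 52, and 51 had another broad DHS within 10 kb. Of the 99 over exons, 38 touched an annotated untranslated region.

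Those with and without a CpG-rich run differed in signal value. The 144 with a run had median values of 1 in replicate 1 and 1.92 in replicate 2, with ranges of 0.248 to 2.55 and 0.331 to 9.55. The 35 without one had medians of 0.318 and 0.425, with ranges of 0.168 to 1.03 and 0.134 to 2.1. Values under 0.5 were found in 28 of the 35 in replicate 1 and 20 in replicate 2, against 7 and 2 of the 144. The ranges overlap. Common footprints of replicate 1 stood at 2.92 per kb with a run and 0.468 per kb without.

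The widest distal one lay over exon sequence near Aspdh (chromosome 7, 44460854 to 44463040), 2.35 kb from its start site. It was 2187 bp wide, with 2167 and 2040 bp called and signal values of 0.915 and 1.54. A second lay 3.96 kb from a start site of Otx1, a homeobox gene of forebrain patterning and deep cortical layers (chromosome 11, 21995560 to 21997651). It was 2092 bp wide, with 1947 and 1860 bp called and signal values of 0.873 and 1.32. Otx1 also had a broad promoter DHS of 1013 bp, with signal values of 0.808 and 1.73. The third, near Pck1, was intergenic, 19.6 kb from the start site and 1960 bp wide, with 1760 and 1040 bp called and signal values of 0.757 and 1.3. It touched a CpG-rich run of 220 bp.

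Some of the others were close to developmental genes and some were weak. Near Pcdh17, a protocadherin, 1541 and 1260 of 1640 bp were called, with signal values of 1.12 and 1.47 and a CpG-rich run of 3626 bp. In an intron 1.64 kb from the start site of Maml3, a Notch coactivator, 1560 and 1080 of 1560 bp were called, with values of 1.29 and 2.25. Near Ptch1, the Hedgehog receptor, replicate 1 called 171 bp and replicate 2 called 1468 bp, with values of 0.906 and 1.23. Weak ones without a CpG-rich run lay near Emc10 (0.369 and 0.709 over 1620 bp) and Gm10778 (0.308 and 0.544 over 1460 bp). Neither held a footprint common to both libraries.

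Broad promoter DHSs belonged to 1149 of 20807 autosomal protein-coding genes (5.52%), or 9.70% of the 11845 genes with any shared promoter DHS. For 32 genes there were 2 or more of them. Unions that abut without an overlap count apart here, as at Pcdh7 and Atxn1. These shares are the background for 29 gene lists, which are described by their counts. The members of the lists were chosen with earlier results of these data known.

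The axon guidance list had the highest share among lists with 10 or more such genes. Of its 31 genes, 27 had a shared promoter DHS and 11 a broad one, which is 35.5% of all (interval 19.2 to 54.6) and 40.7% of those with a shared one (22.4 to 61.2). The receptors were Ephb1 and Nrp1, described above, with Ephb2, Epha7, Plxna1, Plxna4, Robo1 and Unc5c, and the ligands were Slit2, Efna5 and Sema6a, a transmembrane semaphorin. Plxna4, a plexin that transmits semaphorin signals, had 1463 and 1140 of 1560 bp called, with signal values of 1.21 and 3.21. Unc5c, a netrin receptor, had 1220 and 320 of 1220 bp (1.19 and 2.39). Efna5, an ephrin-A ligand, had 960 and 1120 of 1140 bp (0.738 and 1.58) inside a CpG-rich run of 4197 bp, the longest at any broad promoter DHS. Robo1, the receptor of Slit ligands, had 860 and 440 of 860 bp (1.04 and 1.82). Slit2 itself had 540 and 680 of 920 bp (0.869 and 1.39). The width rested mainly on 1 library at Epha7, where 840 and 60 bp were called, at Plxna1, where 86 and 1140 bp were called, and at Sema6a, where 374 and 1660 bp were called, as it did at Unc5c. With 800 bp or more called in both libraries, 4 of the 31 genes were left (12.9%), against 274 of all genes (1.32%).

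Forebrain transcription factors, cytoskeleton genes and imprinted genes came next, with shares whose intervals all held the background of 9.70%. Of 48 transcription factor genes, 32 had a shared and 7 a broad promoter DHS (21.9% of the 32, interval 9.28 to 40). They were Id4, Fezf2, Sox12, Sox11, Pou3f2, Tbr1 and Otx1. Id4, an inhibitor of basic helix-loop-helix factors, had 1640 and 1440 of 1640 bp called (0.967 and 1.58). Fezf2, the regulator of subcerebral projection neurons, had 1520 and 770 of 1520 bp (0.672 and 1.19), and Tbr1, a T-box factor of deep-layer neurons, had 1136 and 1089 of 1179 bp (0.752 and 1.4). The signal values of these 3 and of Otx1 were under the medians of broad DHSs in both libraries. Those of Sox12 (1.48 and 5.29) and Pou3f2 (1.35 and 4.9) were above both medians, and Sox11 (1.04 and 2.4) was above in replicate 2 alone. Of 25 neuronal cytoskeleton and growth genes, 23 had a shared and 5 a broad one (21.7%, interval 7.46 to 43.7): Dpysl5, Actg1, Map1b and the neurofilament genes Nefl and Nefm. Nefl had 1052 and 980 of 1172 bp (1.27 and 1.84), and Dpysl5, a collapsin response mediator, had 480 and 1214 of 1214 bp (0.939 and 1.75). Of 14 imprinted genes with a shared promoter DHS, 3 had a broad one (21.4%, interval 4.66 to 50.8): Snrpn (signal values of 0.514 and 1.42), Magel2 (0.691 and 1.43) and Impact (1.31 and 4.79).

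Synaptic, splicing and chromatin genes lay nearer to the background of 9.70%. Of 29 synaptic genes with a shared promoter DHS, 4 had a broad one, among them Nlgn2, a neuroligin (980 and 660 of 980 bp, 2.02 and 7.23), and Pclo, a presynaptic scaffold (860 and 180 of 860 bp, 1.36 and 4.49). Of 38 splicing factor and hnRNP genes, 6 had one, with high signal values at Ddx5 (3.23 and 10.2) and Srsf2 (3.18 and 10), and 1.61 and 4.29 at Srsf6, a serine- and arginine-rich splicing factor. Of 32 chromatin regulator genes, 4 had one, the widest being Smarca2, a SWI/SNF ATPase (1462 and 1560 of 1647 bp, 0.985 and 1.82). Of 34 activity-regulated genes, all of which had a shared promoter DHS, 3 had a broad one: Dusp6, a MAP kinase phosphatase (1138 and 1120 of 1218 bp, 1.15 and 2.71), Klf10 and Bdnf. At Bdnf, a neurotrophin, replicate 1 called 132 of 980 bp and replicate 2 called 980 bp.

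Some lists had few broad DHSs although most of their genes had a shared promoter DHS. Median gene spans of the ribosomal protein, histone, heat shock and respiratory chain lists were 3.22, 0.539, 5.37 and 7.42 kb, and that of the Zfp list 16.1 kb. Activity-regulated genes (5.34 kb) and forebrain transcription factors (7.84 kb) had shares of 8.82% (interval 1.86 to 23.7) and 21.9% (9.28 to 40). Over all genes under 10 kb with a shared promoter DHS the share was 7.62%. The part of gene span in the shares of the lists was not tested. Of 73 ribosomal protein genes, 1 had a broad one (1.37%, interval 0.0347 to 7.4): Rpl7, whose DHS of 800 bp it shares with the neighbouring Rdh10. Of 48 replication-dependent histone genes with a shared promoter DHS, 0 had a broad one (upper bound 7.4%), and of 27 heat shock and stress genes 0 (upper bound 12.8%). Of 83 nuclear respiratory chain genes, 3 had one (3.61%, interval 0.752 to 10.2), the widest at Uqcrh, a complex III subunit (1041 and 1080 of 1400 bp, 1.95 and 6.58). Of 297 zinc finger Zfp genes, 18 had one (6.06%, interval 3.63 to 9.41), the widest at Zfp467 and Zfp827. Lists of astrocyte, myelin, microglia, endothelial and mural, erythroid, meningeal and choroid plexus, and hepatocyte genes had 0 broad ones, with 8, 3, 3, 6, 3, 3 and 1 genes that had a shared promoter DHS at all. None of the 39 Hox genes had a shared promoter DHS.

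**Figure D5:**
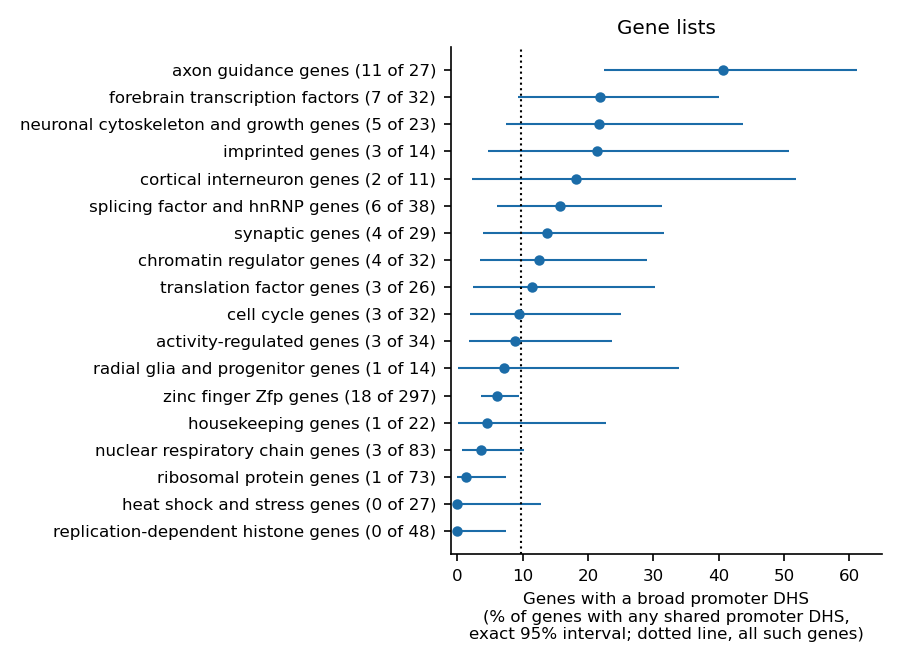
Share of genes with a broad promoter DHS among the genes of each list with any shared promoter DHS (%, horizontal axis), with exact 95% intervals, for lists with 10 or more such genes; counts are in the labels and the dotted line is the share over all such genes. Axon guidance genes stood highest, at 40.7% (11 of 27), and histone and heat shock genes at 0.

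Genes with a broad promoter DHS were long. Their span from the first to the last annotated base had a median of 55.8 kb (quartiles 16.9 and 140.3), against 24.3 kb (10.4 and 57.1) for the 10696 genes with a narrower shared promoter DHS alone. Of the 1149, 407 spanned 100 kb or more (35.4%, interval 32.7 to 38.3), against 13.4% of the 10696. Read the other way, a broad one was found at 7.62% of genes under 10 kb, 5.67% from 10 kb, 9.12% from 30 kb, 19.6% from 100 kb and 30.5% from 300 kb up. A gene can have several shared promoter DHSs. Among genes with 1 shared promoter DHS the share was 5.71, 4.99, 8.23, 17.1 and 29.9% in the same classes. Axon guidance genes are long too, with a median span of 154.4 kb over the list. Of the 1835 genes of 100 kb or more with a shared promoter DHS, 407 had a broad one (22.2%), and 10 of the 19 axon guidance genes among them did.

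Markers of cell types were counted in the same way. Of 10 markers of cortical neurons, 5 had a shared promoter DHS, and of these Tbr1 had a broad one. Those without were Bcl11b, Dcx, Emx1, Neurod2 and Neurod6. As markers of the main neurons of the tissue lacked one too, a missing DHS does not show that a cell type was absent. Of 4 microglia markers, 0 had a shared promoter DHS, and of the markers of interneurons, astrocytes and endothelium 1 of 4 each had one. Radial glia and oligodendrocyte precursors had 2 of 4 each, and blood 1 of 3. None of these other markers had a broad DHS, but the longer gene lists of 3 of these cell types held some. Of 7 oligodendrocyte precursor genes with a shared promoter DHS, 2 had a broad one (Vcan and Lhfpl3). So did 2 of 11 cortical interneuron genes (Maf and Npy) and 1 of 14 radial glia and progenitor genes (Dll1). Tissue pieces mix cell types, so a wide union from one cell type and the sum of narrower ones from several cannot be told apart.

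Broad DHSs were found on all 19 autosomes, from 40 on chromosome 16 to 92 on chromosome 2. As a share of the shared DHSs of a chromosome they ranged from 2.9% on chromosome 1 (interval 2.12 to 3.86) to 7.31% on chromosome 18 (5.57 to 9.39). The median soft-masked share of broad DHSs was 5.24%, and 0 of 1259 were over 50% soft-masked, against 222 of the other 24024 (0.924%). The part of repeats in width was not tested.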

How the data were processed

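DNase-seq of the left cerebral cortex was measured in 2 libraries labelled as biological replicates. The authors deposited, per library and in mm10 coordinates per the labels, 2 lists of calls with a signal value, runs of bases with a false discovery rate (a q-value, p-value scale) of the cut rate, and footprint intervals that carry the value 0.01 on every line. Aligner, caller, settings and read depth were not given in the sources used here. Of each pair of lists, the stricter one, with fewer lines, was used. Calls that overlapped by 1 bp or more were joined, and calls that only abut were not, so some neighbouring unions have no gap between them. Positions were read against GENCODE M21 basic transcripts and the GRCm38 sequence (Python 3.11.15, pandas 2.3.3, scipy 1.17.1). CpG-rich runs joined windows of 200 bp with a GC content of 50% or more and a CpG ratio of 0.6 or more, up to 3000 bp beyond the DHS. Shares have exact (Clopper-Pearson) 95% intervals, which cover counting error only. No test was run, because the members were selected on width. The members, gene lists and consensus sequences were chosen with earlier results of these data known. Named genes were the 12 widest promoter and distal members, the extremes of signal value and of common footprints, the 3 nearest the limit on each side, and the 2 widest of each gene list; a selection is printed, and other genes of some lists are named to complete a count; some items that the rule names are not reported here. Scripts were tested on simulated calls and sequences. Alternatives are under the closing section.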

Additional observations from a re-analysis of the deposited data

How the results depend on the processing

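The lenient list gave 2273 broad DHSs, a promoter share of 79.7%, a CpG-rich share of 83.6%, 1851 genes, 5.88 and 8.79 footprints per kb and median signal values of 0.957 and 1.79 (replicates 1 and 2). A limit of 600 bp gave 3142 DHSs, 2770 genes, 7.31 and 11 footprints per kb and signal values of 1.18 and 2.52. A limit of 1000 bp gave 500 DHSs, a promoter share of 88%, 470 genes, a signal value of 1.11 in replicate 1 and 10.2 footprints per kb in replicate 2. With 800 bp called in both libraries there were 298 DHSs, a promoter share of 88.9%, 274 genes, 4 axon guidance genes, 7.06 and 10.7 footprints per kb and a signal value of 2.24 in replicate 2. The stronger 50% of calls gave shares of 88.8% and 90.7%, 7.39 and 11.5 footprints per kb and signal values of 1.26 and 2.78. An overlap of 50% gave 7.07 and 10.8 footprints per kb. Counted in calls of a single library, without the need to be shared, there were 456 DHSs (replicate 2 alone) to 876 (replicate 1 alone), promoter shares of 74.3 to 78.1%, CpG-rich shares of 86 to 88.2%, 368 to 717 genes, 6.19 to 6.85 footprints per kb in replicate 1 and 9.23 to 10.5 in replicate 2, and a signal value of 1.12 in replicate 1, or 1.65 for replicate 2. Promoter windows of 0.5 and 2.5 kb gave promoter shares of 82.3 and 89%, and the midpoint rule 82%. A CpG ratio of 0.75 gave a CpG-rich share of 64.4%. Footprints common to both libraries stood at 3.16 and 3.08 per kb. The number of consensus sequences sparser in broad promoter DHSs was 12 per kb and with shuffled versions taken into account, and 9 in either window of 300 bp; the window at the start site was chosen after seeing the data. In distal DHSs it was 8 per kb and 4 with the midpoint window or the shuffled versions. The cause was not tested; smaller counts under a stricter width rule follow from the rule itself. Of 112 such values, 61 stayed within 1.5 times (counts) or within the 95% interval, and 51 did not. Leaving out calls under a signal value of 0.3, adding chromosome X and taking the widest single call changed none of them beyond that. A limit of 50% soft-masked bases removed none of the 1259 DHSs, whose highest share was 49.1%. Its values, which are among the 61, could therefore not differ and say nothing on repeats. No paired analysis was possible because there is 1 group. Read depth is not known, so the part of depth in call width was not tested.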
